A study of Rattus norvegicus with 63 samples.

Results

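The genes described here encode proteins of the cytoplasmic ribosome or their paralogs, measured in rat kidney before and after an injection of methylprednisolone. A probe set, the group of short probes that reports 1 transcript, was taken as a member if it carried a single gene symbol beginning with Rpl or Rps and a digit, with Rplp and a digit, or equal to Rpsa. Paralogs such as Rpl7l1 came in by their symbol, and the subunit was also read from the symbol. Ribosomal S6 kinases, binding proteins, pseudogenes and Rplp0l were left out. This gave 50 of the 15923 probe sets of the main array type, for 44 genes: 32 probe sets for 29 genes of the large subunit, 17 for 14 genes of the small subunit, and 1 for the stalk protein Rplp0. Another 34 probe sets that carry several symbols including a ribosomal protein were set aside, so that Rplp1, Rplp2 and Rps27a have no probe set here, and the ribosomal components Fau and Rack1 were outside the symbol rule.

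Total RNA of rat kidney was hybridised to Affymetrix expression arrays. The untreated group (0 h, without injection) had 4 libraries, and each of 16 times from 0.25 to 72 h after injection of methylprednisolone, a synthetic glucocorticoid that activates the glucocorticoid receptor, had 3. On a second array type there were 4 untreated libraries, 3 from 2 h and 3 from 6 h. The labels give no strain, age, sex or dose, no vehicle-injected group and no word on whether the libraries of a time came from separate animals, so the p-values reflect the spread among these samples alone, and that spread may be technical.

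A mammalian ribosome joins a small subunit, which reads the messenger RNA, to a large subunit, which forms the peptide bond, and a stalk on the large subunit that recruits the translation factors. Cells make the ribosomal proteins in matched amounts. Many of their messenger RNAs begin with a C followed by a run of pyrimidines, the 5′ terminal oligopyrimidine (5′ TOP) motif, through which the growth kinase complex mTORC1 sets their translation, so that output can change with little change in the amount of messenger RNA. The kidney tubule is rich in ribosomes and responds to glucocorticoids through receptor-driven genes, of which Ddit4, an inhibitor of mTORC1, is a well known one.

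Windows of 30 bases around the annotated start of transcription, 15 bases on either side, are shown for the 3 genes that passed a test in the comparisons, for 4 genes with a pyrimidine run at the start, and for 2 without one, in the order named. They come from RefSeq promoters on the build GRCr8, 5′ to 3′ on the gene's strand, and capitals mark a run of at least 5 pyrimidines that begins with C within 4 bases of the start.
Rps28, chr7:15311319-15311348, minus strand: gcatcccctgctcacgtgaCTCCTCTCCgc
Rpsa, chr8:128728864-128728893, plus strand: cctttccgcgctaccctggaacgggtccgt
Rpl7l1, chr9:21695703-21695732, plus strand: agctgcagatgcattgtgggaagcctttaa
Rplp0, chr12:46718376-46718405, minus strand: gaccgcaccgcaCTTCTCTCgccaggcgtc
Rpl12, chr3:36661925-36661954, plus strand: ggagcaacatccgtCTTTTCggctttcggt
Rps24, chr16:96502-96531, plus strand: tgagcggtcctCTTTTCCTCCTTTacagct
Rps15, chr7:10068101-10068130, minus strand: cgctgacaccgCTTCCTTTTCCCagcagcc
Rps27l, chr8:76443643-76443672, plus strand: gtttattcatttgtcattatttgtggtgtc
Rps6, chr5:106420526-106420555, minus strand: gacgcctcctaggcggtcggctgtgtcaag

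RefSeq promoters were matched for 37 of the 44 member genes. A pyrimidine run of this kind stood in 16 of them (43.2%), against 13.9% of all 33469 promoters. Among the 3 genes that passed a test, Rps28 had such a run, whereas Rpsa and Rpl7l1 had none in the window searched. Runs farther from the annotated start were not counted, such as the one that opens the printed window of Rpsa. Whether the annotated starts are those used in kidney was not tested. Over the whole promoter, 250 bases before to 50 after the start and on both strands, the letters GGAAG (the core of Ets-family sites) were found in 34 members (91.9%, against 70.1% of all promoters). The letters AAGATGGC, which match part of a YY1 site and can share 3 letters with GGAAG, were found in 4 (10.8% against 3.17%). TATAAA was found in 6 (16.2% against 14.2%), and the full consensus palindrome of the glucocorticoid receptor in 0 (against 0.0149% of all promoters). These matches describe letters, not occupied sites.

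Each deposited value was a linear intensity, and the number of arrays limits the precision. Array medians lay between 65.6 and 83.3 on the main type, where 2 arrays of 5 h replicate 1 were averaged to give 52 libraries. The first of these had a Gapdh 3′ over 5′ log2 signal ratio, a sign of RNA degradation, of 5.34 against 0.42 on the second, and the averaged library stood apart at 2.88, with all others at or below 0.83. Proximal tubule markers were all measured (10 of 10, summed signal 18760 to 19520 at 0 h) in these kidney samples. In 6 libraries the fibrinogen chain Fga was over 1000 at a time whose median was not. In bulk tissue, fewer cells of a type and less RNA per cell cannot be told apart.

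Of the 50 member probe sets, 44 (41 genes) had a mean signal high enough to be tested and 6 did not. The 6 were the only probe sets of Rpl3l (the paralog of Rpl3 known from striated muscle), Rpl30 and Rps4y2, and further probe sets of Rpl14, Rps24 and Rpl7. The measured members were bright: 38 of 44 lay at or above the 95th percentile of mean signal on the array, which describes how far they stood above background and not the order of transcript amounts. Rps29 was at percentile 99.8 in the small subunit and Rpl7a at 99.6 in the large, and the dimmest measured members were Rps27l at 48.7 and Rpl39 at 72.1. Rat ribosomal protein genes have many near-identical processed copies, and the probe sets of this class may also read those.

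The ribosomal protein messages moved little over 72 h. The highest and the lowest of the 17 time means of a member differed by a median of 0.36 on the log2 scale (1.29-fold), against 0.65 for all 9520 tested probe sets, of which 6.23% had a smaller range than the median member. The spread between libraries of a time was smaller too, with a median SD of 0.19 against 0.26. Most members were brighter than most tested probe sets, and no comparison with probe sets of like brightness was made. Of the 704 differences between a member's mean at a later time and its mean at 0 h, 4 exceeded 0.5 in size, and they ran from −0.51 (Rps27l at 7 h) to 0.62 (Rpl37a at 1 h). A larger share pointed up than down, 534 of 704 being above 0, but all of them share the 4 libraries at 0 h.

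**Figure D1:**
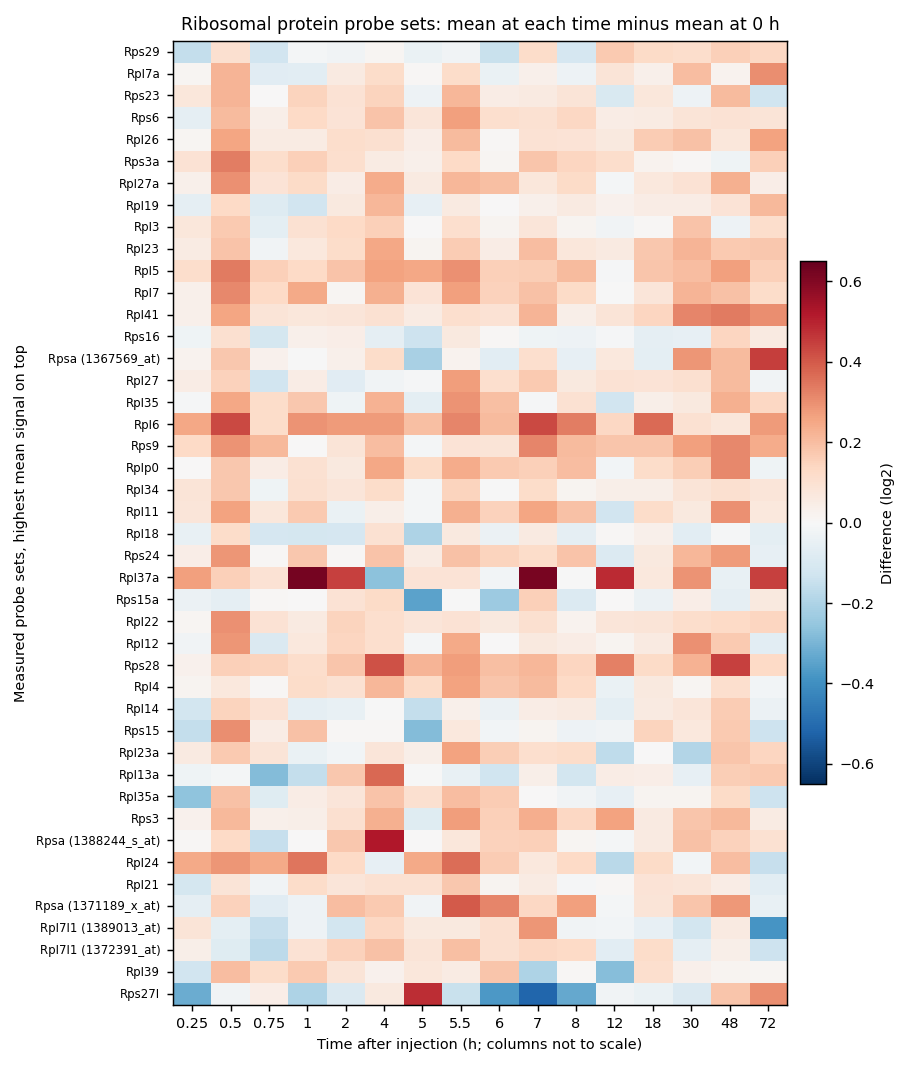
Mean log2 level of each of the 44 measured ribosomal protein probe sets at the 16 later times (columns, hours after injection) minus its mean at 0 h (4 libraries), with probe sets ordered by mean signal. Pale red prevails, with 534 of 704 cells above 0, and the 4 cells over 0.5 in size belong to Rpl37a, Rpsa (1388244_s_at) and Rps27l.

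A moderated F test of all 16 later times against 0 h (limma, Benjamini-Hochberg adjustment over all tested probe sets) called 0 of the 44 members, where 16.1% of all tested probe sets were called. Without adjustment, 4 members had a p under 0.05. The lowest adjusted p-values (limma) were 0.1002 for Rpl7l1 (probe set 1389013_at), 0.107 for Rps27l, 0.114 for Rpsa (1367569_at) and 0.135 for Rps28. No member was called at any time by this test, yet 1 was when 5 h replicate 1, which stood apart in RNA quality, was left out (Rpl7l1, adjusted p = 0.0239 by limma), and 1 likewise without each of 5 other libraries: Rpsa without 0 h replicate 1, Rpl7l1 without 5 h replicate 2 or 7 h replicate 1, Rps28 without 5 h replicate 3 and Rps27l without 8 h replicate 1.

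Times were then pooled into 5 windows and compared with 0 h. At 0.25 to 1 h, 0 of 44 members were called (background 0.662%), with a median difference of 0.07 against −0.03 for all tested probe sets. An unadjusted p under 0.05 (limma) was found for 2 members, beside 6.66% of all tested probe sets. At 2 to 4 h, 1 was called, Rps28, and it was higher (background 9.97% in either direction and 5.17% higher); the median was 0.11 against −0.07, and 37 members were above 0 (84.1%, against 40.3% of all tested). At 5 to 8 h, 0 were called (background 9.71%), with a median of 0.10 against −0.03. In that window 3 members had an unadjusted p under 0.05 (limma), beside 22.1% of all tested probe sets.

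The later windows gave no calls. At 12 to 18 h, 0 were called (background 0.389%) and the median was 0.04 against −0.01. Unadjusted, 1 member had a p under 0.05 (limma), beside 5.71% of all tested probe sets. At 30 to 72 h, 0 were called, as was no probe set on the array (background 0%). Unadjusted, 5 members had a p under 0.05 (limma), beside 5.43% of all tested probe sets. Above 0 were 41 of 44 members, with a median of 0.13 (1.09-fold) against −0.01. The upward lean was small, and the 95% intervals of all 44 members lay within 1 log2 unit of 0 in every window, those of 40 to 42 of them within 0.5. The 34 set-aside probe sets with several symbols had medians of 0.10, 0.12, 0.10, 0.07 and 0.12 in the 5 windows, with 0 called.

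All of these differences use the same 4 untreated libraries. The median deviation of the 44 members from their own means was 0.12, −0.09, −0.14 and −0.27 in the 4 libraries at 0 h. In the 9 libraries of 30 to 72 h it ran from −0.15 through a median of 0.09 to 0.13. The groups overlapped, since 0 h replicate 1 lay above 8 of those 9 while the other 3 lay near the bottom. Leaving out 0 h replicate 1 raised the medians to 0.15, 0.20, 0.16, 0.11 and 0.18 in the 5 windows, 1.5 times or more for 4 of the 5, whereas leaving out 0 h replicate 4 lowered them to 0.02, 0.04, 0.04, −0.01 and 0.05, and quantile normalisation lowered that of 30 to 72 h to 0.04. In the comparison of 5 to 8 h with 30 to 72 h, which does not use the 0 h libraries, the median was −0.03 for the members and −0.03 for all tested probe sets, and 19 of 44 were above 0.

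**Figure D2:**
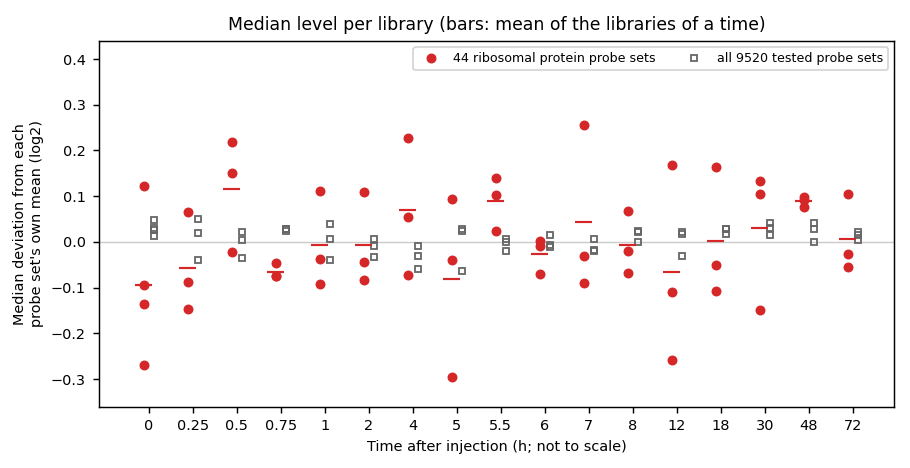
Median deviation, in each of 52 libraries, of the 44 ribosomal protein probe sets from their own means (filled circles; bars give the mean of a time) and of all 9520 tested probe sets (open squares), on a log2 axis against time after injection. The circles range over 0.55 and overlap between times, with 3 of the 4 libraries at 0 h below 0, whereas the squares stay near 0.

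Among the large subunit proteins none was called against 0 h. Rpl6 had a signal of 1131, 1368, 1540 and 1723 in the 4 libraries at 0 h. At 5 to 8 h (15 libraries) the lowest, median and highest were 1393, 1786 and 2414. The later libraries were mostly higher, 8 of 15 lying above all 4 at 0 h, and the difference of 0.30 ± 0.12 (SE; 95% interval 0.05 to 0.54) had an adjusted p of 0.121 (limma). Its difference was between 0.25 and 0.30 in the first 4 windows, none past the threshold.

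Rpl5 and Rpl11, which join the 5S ribosomal RNA in a particle that can also bind Mdm2, were examined as a pair. Rpl5 signals at 0 h ranged from 1691 to 2090 (4 libraries) and at 5 to 8 h from 1890 to 2671 with a median of 2183. They overlapped, although 12 of 15 libraries were above all at 0 h, and the difference was 0.21 ± 0.09 (SE; adjusted p = 0.141, limma). Its partner Rpl11 differed by 0.16 ± 0.11 in that window (95% interval −0.06 to 0.39) and by −0.0034 at 2 to 4 h (−0.26 to 0.25).

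Rpl24, which reaches from the large to the small subunit, and Rpl37a, a zinc-binding protein, had the highest differences at 0.25 to 1 h, 0.28 ± 0.12 and 0.28 ± 0.24 (SE; adjusted p = 0.591 and 0.901, limma). Rpl37a had a wide spread: its 4 signals at 0 h were 848, 1189, 1493 and 1804, and its within-time SD of 0.44 log2 was the highest of the measured members. It also had the highest difference at 12 to 18 h, 0.28 (95% interval −0.27 to 0.82). At 2 to 4 h Rpl13a, which also takes part in translational silencing, differed by 0.27 (95% interval −0.12 to 0.67), and its libraries overlapped (936 to 1352 at 0 h, 949 to 1757 at 2 to 4 h). Low differences in the large subunit, beside those of Rpl7l1, were small: −0.12 for Rpl13a at 0.25 to 1 h and −0.05 at 5 to 8 h, −0.05 for Rpl27 and −0.03 for Rpl14 at 2 to 4 h, −0.08 for Rpl39 and Rpl23a and −0.04 for Rpl35 at 12 to 18 h, and −0.05 for Rpl18 at 30 to 72 h. None of these passed the threshold.

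Rpl41, the smallest ribosomal protein, had the highest difference at 30 to 72 h. Its signals at 0 h were 1433, 1596, 1957 and 2102, and those of the 9 later libraries ran from 1899 through 2155 to 2680. The later values were higher with overlap (5 of 9 above all at 0 h), and the difference of 0.32 ± 0.12 (SE) had an unadjusted p of 0.0135 and an adjusted p of 0.864 (limma). Rplp0, the base of the stalk, had 1422, 1426, 1429 and 1612 at 0 h and its highest time mean at 48 h, where the libraries had 1718, 1867 and 1899. Against 0 h it differed by 0.16 at 2 to 4 h, 0.18 at 5 to 8 h and 0.15 at 30 to 72 h, with 95% intervals that all included 0.

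In the small subunit Rps28, a protein near the exit of the messenger RNA channel, was the single member called against 0 h. Its signals at 0 h were 1133, 1160, 1169 and 1273. At 2 h they were 1224, 1367 and 1440, and at 4 h 1378, 1551 and 1848. All 6 libraries of the window were above the mean at 0 h and 5 of 6 above every library at 0 h, with a difference of 0.30 ± 0.10 (SE; 95% interval 0.10 to 0.49; adjusted p = 0.0394, limma). The call did not hold throughout: the adjusted p was above 0.05 in 10 of 62 alternative analyses, reaching 0.132 without 4 h replicate 2, and also in those without 0 h replicate 1, 2 or 3 (0.0858, 0.101 and 0.0983), 2 h replicate 1 or 3 (0.0700 and 0.0941) or 4 h replicate 3 (0.055).

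The Rps28 difference did not fade with time. It was 0.21 at 5 to 8 h, 0.23 at 12 to 18 h and 0.27 at 30 to 72 h (adjusted p = 0.117, 0.738 and 0.864, limma), and its lowest time mean was at 0 h. At 48 h its 3 libraries had 1560, 1611 and 1661, all above the 4 at 0 h. The call at 2 to 4 h coincides with other changes in the same libraries: 6 of 10 measured macrophage and neutrophil markers rose (summed signal 1569 to 1937 at 0 h, 2787 to 3329 at 2 to 4 h), 3 of 5 podocyte markers fell (937 to 1260 against 631 to 850), and 3 of 6 endothelial markers fell while 1 rose. Of 3 measured liver and acute-phase genes 2 rose, Fga by 5.27 and Fgg by 4.76 (log2). The summed signal of that list was 171 to 306 at 0 h and 2036 to 3470 at 2 to 4 h. Summed signals cover all listed genes on the array, 6 here and 12 for macrophages and neutrophils, also those too dim to be tested. The Gapdh 3′ over 5′ log2 ratio was 0.10 to 0.34 at 0 h and 0.23 to 0.83 at 2 to 4 h. It was highest in 4 h replicate 2, the library with the highest Rps28 signal. The part of these changes in the Rps28 difference was not tested.

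Rpsa, a protein of the small subunit that is also known as a laminin receptor, had the lowest adjusted p of the members between 5 to 8 h and 30 to 72 h. In that comparison 2 of 44 members were called, 1 in each direction, against 26.2% of all tested probe sets (12.5% higher and 13.8% lower at 5 to 8 h). The signals of Rpsa (1367569_at) at 30 h were 1972, 2197 and 2578, at 48 h 2019, 2032 and 2295, and at 72 h 2023, 2572 and 3030. At 5 to 8 h (15 libraries) the lowest, median and highest were 1402, 1781 and 2320. In 13 of 15 the signal was below every library of 30 to 72 h. The difference of −0.35 ± 0.08 (SE) had an adjusted p of 0.00058 (limma), and the call held in 62 of 62 alternatives. The adjusted p was highest, 0.0432 (limma), without the arrays whose titles carry the letter b or c, where the difference was −0.26. The 72 h libraries with 2572 and 3030 are the only arrays of letter c. Markers of kidney cells also differed in this comparison: 6 of 10 proximal tubule markers were lower at 5 to 8 h and 1 was higher (summed signal 13928.5 to 21002.7 against 19215.5 to 23932.5 at 30 to 72 h). Podocyte markers were lower in 4 of 5 (534 to 901 against 1012 to 1253), thick limb and distal tubule markers in 3 of 5 (2656 to 7205 against 5958 to 9523), and lymphocyte markers in 2 of 2 (234.1 to 340.97 against 266 to 453). The sums again cover all listed genes on the array, 9 for lymphocytes and 6 for thick limb and distal tubule. Macrophage and neutrophil markers were higher in 2 of 10 and lower in 2. Their part in the Rpsa difference, and in that of Rpl7l1 in the same comparison, was not tested.

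The untreated level of this Rpsa probe set does not say which of the windows departed from it. At 0 h its signals were 1431, 1785, 1799 and 2452, which spans most of both windows. Against 0 h the difference was 0.31 at 30 to 72 h (95% interval 0.09 to 0.54, adjusted p = 0.864) and −0.04 at 5 to 8 h, neither past the threshold in limma. Nor did the other Rpsa probe sets follow: 1371189_x_at differed by 0.08 (adjusted p = 0.537, limma) and 1388244_s_at by −0.07 (0.649) between 5 to 8 h and 30 to 72 h. The suffixes x and s mark probes that can read several transcripts. At 5 to 8 h 1371189_x_at differed from 0 h by 0.22 ± 0.12 (SE; adjusted p = 0.282, limma). At 2 to 4 h 1388244_s_at had the highest difference of all members, 0.35 ± 0.15 (SE; adjusted p = 0.137, limma), with 1572 in 4 h replicate 2 against a window median of 976 and 738 to 862 at 0 h.

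Rpl7l1, a paralog of Rpl7, went the other way. Probe set 1389013_at had signals of 250, 258 and 266 at 30 h, 256, 308 and 317 at 48 h, and 182, 224 and 237 at 72 h. At 5 to 8 h the lowest, median and highest of 15 libraries were 224, 300 and 411. The groups overlapped, with 3 of 15 above every library of 30 to 72 h, and the level was higher by 0.24 ± 0.07 (SE; adjusted p = 0.00939, limma), which held in 62 of 62 alternatives, at most at 0.0491. Its second probe set, 1372391_at, differed by 0.18 ± 0.08 in the same direction (adjusted p = 0.0697, limma). Against 0 h the differences at 30 to 72 h were −0.15 and −0.05, with 95% intervals that included 0. The parent gene Rpl7 (1398917_at) was not called in any window.

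**Figure D3:**
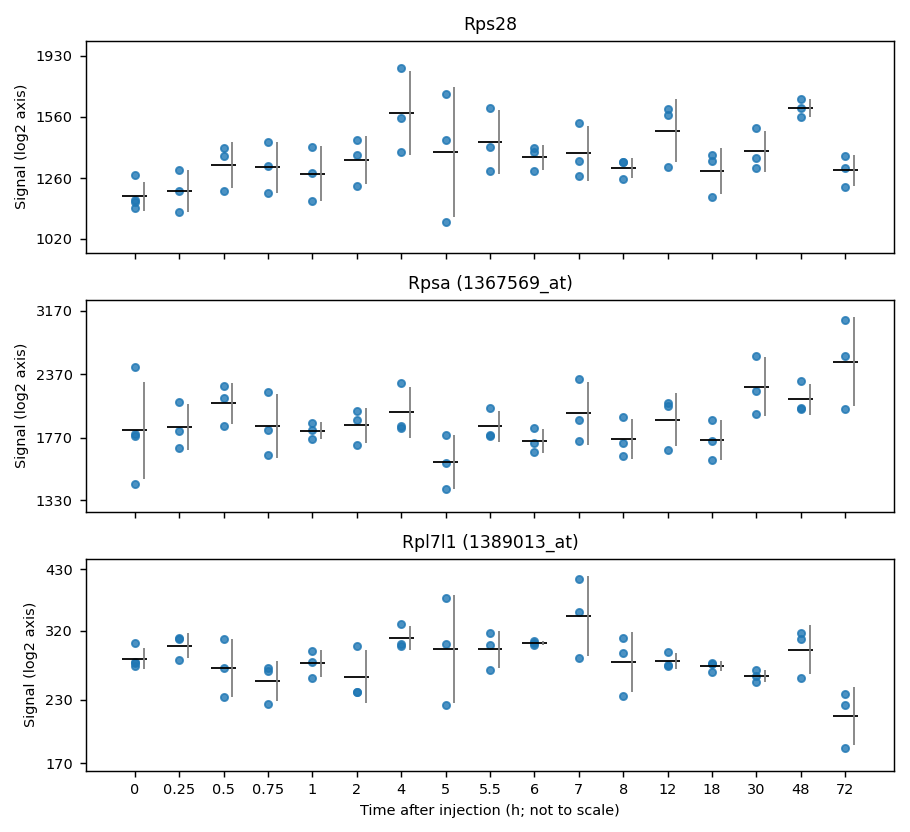
Signal in each library (points; log2 axis) of Rps28, Rpsa (1367569_at) and Rpl7l1 (1389013_at) against time after injection, with horizontal bars at the mean of log2 values and grey lines of 1 SD around it. Rps28 is lowest at 0 h, Rpsa is high at 30 to 72 h beside a wide 0 h group, and Rpl7l1 reaches its lowest values at 72 h.

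Rps27l, the paralog of Rps27 and a target of p53, lay nearest to the filter on low signal. It had a signal of 65.9 to 100 at 0 h, 42.1 to 140 at 5 to 8 h (median 61.0) and 51.8 to 134 at 30 to 72 h (median 81.2). It had the lowest difference of all members at 0.25 to 1 h (−0.13) and 5 to 8 h (−0.18, 95% interval −0.51 to 0.16), one of −0.02 at 2 to 4 h, and between 5 to 8 h and 30 to 72 h it differed by −0.31 ± 0.12 (SE; adjusted p = 0.0619, limma). Rpl41 differed by −0.22 ± 0.09 there (adjusted p = 0.0596, limma). Without the 6 libraries of high Fga, 4 members were called, with both of these now lower at 5 to 8 h (adjusted p = 0.00879 for Rps27l and 0.00853 for Rpl41, limma). The share of all probe sets called in that refit was not determined.

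The remaining small subunit proteins were not called in any of these comparisons. Rps6, the substrate of the S6 kinases downstream of mTORC1, had signals of 2137 to 3025 at 0 h and differed by 0.08, 0.14, 0.14, 0.05 and 0.09 in the 5 windows, with 95% intervals from −0.17 to 0.36 at their widest limits. Rps9, which contributes to accurate decoding, differed by 0.27 ± 0.11 (SE) at 30 to 72 h (adjusted p = 0.864, limma) and by 0.18 at 12 to 18 h. The lowest differences were −0.05 for Rps29 at 0.25 to 1 h and −0.10 for Rps15a at 5 to 8 h (95% interval −0.37 to 0.16).

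**Figure D4:**
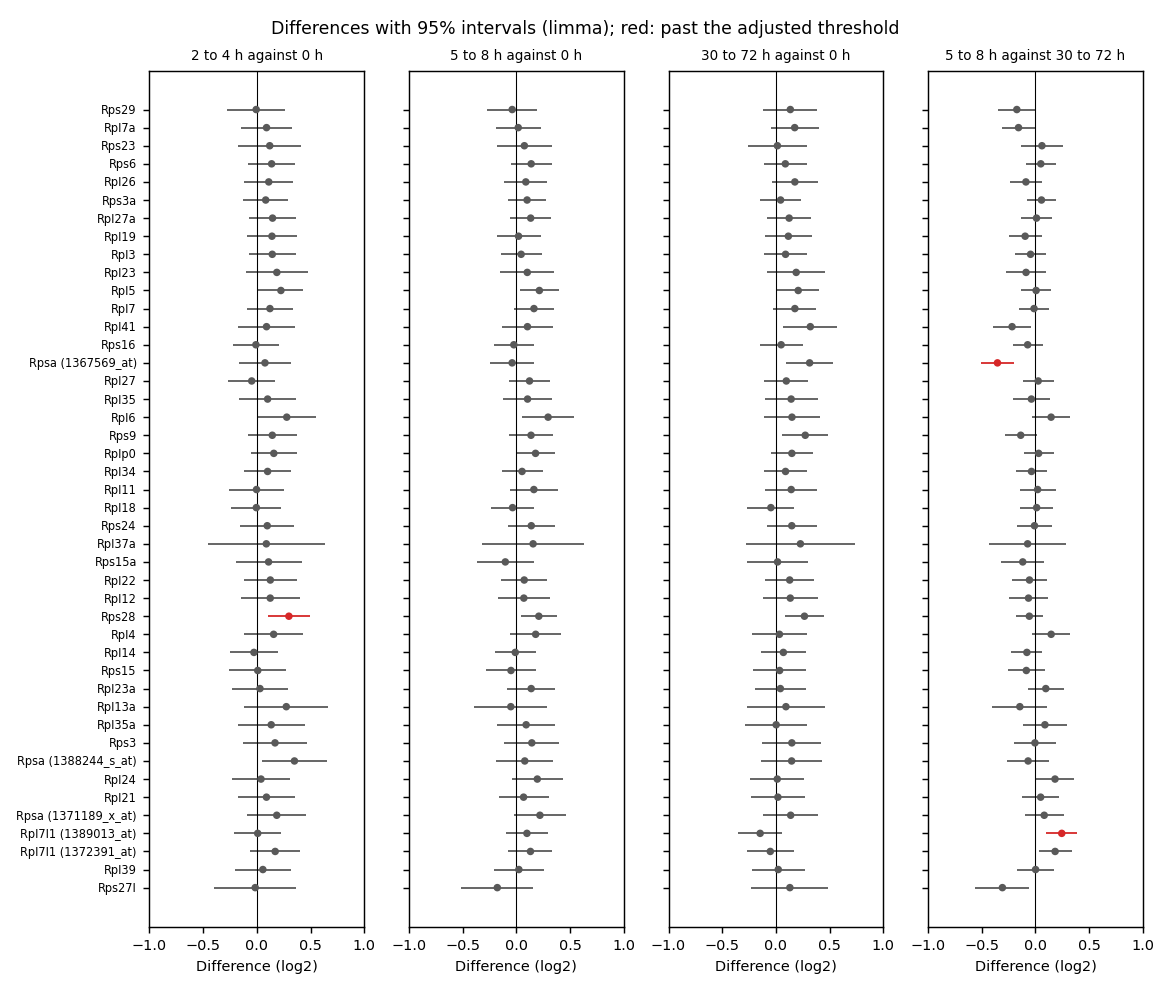
Difference and 95% interval (log2, limma) of each measured ribosomal protein probe set at 2 to 4 h, 5 to 8 h and 30 to 72 h against 0 h and at 5 to 8 h against 30 to 72 h. Most points lie right of 0 in the first 3 panels and around 0 in the last, and the members past the adjusted threshold (red) are Rps28 at 2 to 4 h and Rpsa and Rpl7l1 in the last panel.

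Members varied together between libraries of the same time. Over 52 libraries and after subtraction of the mean of each time, the median Pearson r over the 946 pairs of member probe sets was 0.43, with 93.3% of pairs above 0, against 0.01 over all tested pairs. Pairs share the libraries, the array scaling and a bright signal range, so this is a description. Against the median of the other member genes, 33 of 44 probe sets had an r over 0.5, led by Rpl18 at 0.87. At the other end stood Rps27l at −0.36, Rpl39 at 0.12, Rpl37a at 0.19 and Rpl7l1 at 0.20 and 0.36, and Rps28 had 0.42.

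**Figure D5:**
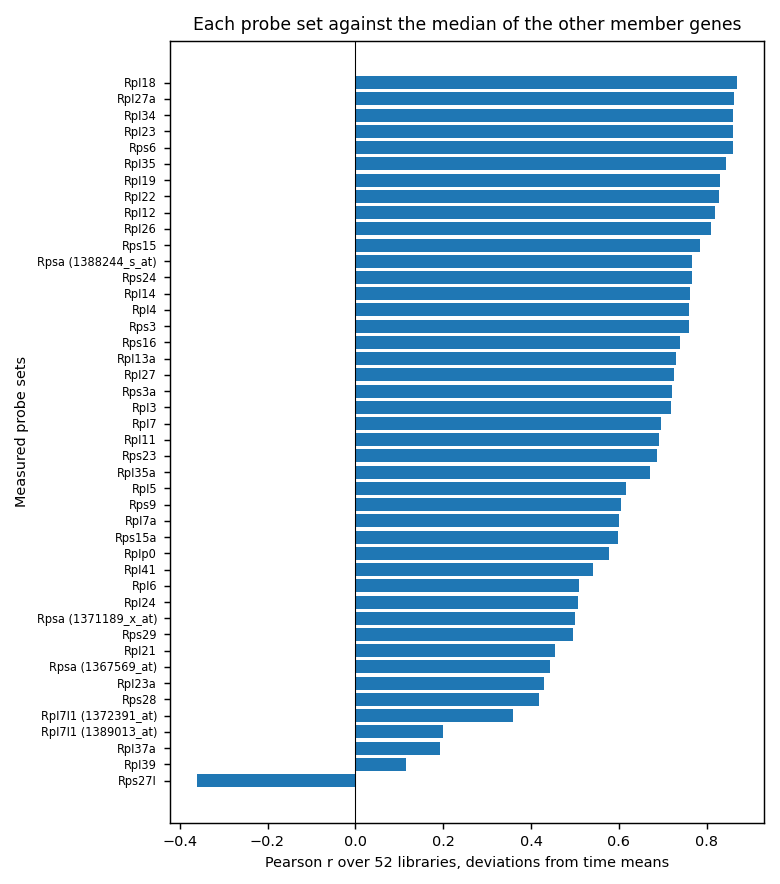
Pearson correlation over 52 libraries, after subtraction of time means, of each measured probe set with the median of the other ribosomal protein genes. Most bars exceed 0.5, from 0.87 for Rpl18, and Rps27l alone is negative at −0.36.

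The common level had a total range of 0.55 over the 52 libraries (1.46-fold), from −0.29 in 5 h replicate 3 to 0.25 in 7 h replicate 3. Libraries of 1 time were often far apart, as at 12 h (−0.26, −0.11 and 0.17). Within times the level correlated weakly with the Gapdh and actin 3′ over 5′ ratios (r = 0.15 and 0.21 over 52 libraries), with summed red cell (0.14), macrophage and neutrophil (0.10) and liver and acute-phase markers (0.20). The 2 arrays of 5 h replicate 1, which carry 1 sample number, differed in their median member by 0.22. Their Gapdh 3′ over 5′ log2 ratios were far apart (5.34 and 0.42), so the pair does not give the usual shift between arrays.

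On the second array type 61 probe sets (42 genes) fitted the symbol rule and 59 (41 genes) were measured. At 2 h 0 of 59 were called (background 9.8%), with a median of −0.02 against −0.07. An unadjusted p under 0.05 (limma) was found for 16, 9 of them higher, beside 29.1% of all tested probe sets. At 6 h 0 were called (background 2.35%), with a median of −0.01 against −0.02. Unadjusted, 0 had a p under 0.05 (limma), beside 10.7% of all tested probe sets. The 2 h group was uneven. The SD of the members' deviations within a library was 0.68 in 2 h replicate 2 and between 0.18 and 0.31 in the other 9. Over all tested probe sets the SD was likewise higher in that library, 0.80 against 0.38 to 0.53 in the other 9. The same library held the highest of the 10 values for 18 members and the lowest for 20. Its Gapdh 3′ over 5′ log2 ratio of 0.29 was within the range of the others.

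Rplp0 shows this library. On the second type its signals were 2123, 2261, 2587 and 2749 at 0 h, 3513, 6394 and 2816 at 2 h, and 2925, 3186 and 2941 at 6 h. The value of 6394 is that of 2 h replicate 2, while all 6 later libraries lay above the 4 at 0 h. The difference at 2 h was 0.72 ± 0.24 (SE; adjusted p = 0.0755, limma), where the main type gave 0.06 at 2 h. Leaving out 2 h replicate 2 left 0 members called, and leaving out replicate 1 or 3 in its place gave 3 called each. The share of all probe sets called in those refits was not determined. Over the 33 genes measured on both types, the median difference at 2 h was 0.08 where the main type was used and −0.04 where the second was (26 and 15 above 0), and at 6 h 0.06 and −0.07 (25 and 11 above 0). The types were scaled separately and the labels do not say whether they carry the same RNA.

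Lists of genes around the ribosome were followed in the same fits. In the list of mTORC1 and growth control genes (33 measured), 5 rose and 3 fell at 2 to 4 h, beside 9.97% of all tested probe sets called in either direction. The largest was Ddit4, 3.77 ± 0.36 higher (SE, log2; adjusted p = 2.91e-10, limma), followed by Sesn1, a stress-induced inhibitor of the same kinase complex (1.497), Klf15, a transcription factor induced by glucocorticoids (1.29), and the stress factor Atf4 (0.98). Ddit4 was already 2.54 higher at 0.25 to 1 h, together with Sesn1 (0.69), and 2.72 higher at 5 to 8 h. The list's median at 2 to 4 h was −0.04.

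Translation factors (44 measured) had 0 called at 2 to 4 h and 3 higher at 5 to 8 h, where 9.71% of all tested probe sets were called (Eif3c 0.38, Eif4g3 0.36 and Eif3d 0.30), with a median of 0.10 in that window. Between 5 to 8 h and 30 to 72 h, 14 were higher and 4 lower, among them Etf1 (0.48), Eif3a (0.42) and Eif5b (0.41) and, lower, Eif2b5 (−0.37). Ribosome biogenesis genes (50 measured) had 2 higher (Tsr1 0.76, Wdr43 0.56) and 2 lower (Utp4 −0.74, Exosc7 −0.52) at 2 to 4 h, and in the comparison of 5 to 8 h with 30 to 72 h 10 higher and 2 lower, led by Gar1 (0.99), a protein of the particles that modify ribosomal RNA, and Ddx21 (0.60). The called share in that comparison was 18 of 44 translation factors and 12 of 50 biogenesis genes, beside 2 of 41 ribosomal protein genes and 26.2% of all probe sets; no test of these differences was made.

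Mitochondrial ribosomal proteins (71 measured), products of other genes that serve the mitochondrion, had a median of −0.11 at 2 to 4 h with 1 higher and 2 lower, and 5 lower at 5 to 8 h, beside 9.97% and 9.71% of all tested probe sets called. Between 5 to 8 h and 30 to 72 h, 3 were higher and 11 lower (background 26.2%). Of the 16 measured genes outside the ribosome whose messages are known to carry a 5′ TOP motif, Vim, an intermediate filament gene, was called at 2 to 4 h (1.14) and 5 to 8 h (1.08), and the list's median in those windows was 0.16 and 0.11. Its other 15 genes were not called in the 5 windows, and Eef1g stands in this list and in that of the translation factors.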

How the data were processed

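Total RNA of rat kidney was measured in 63 arrays, 53 of the main type (52 libraries, since arrays a and b of 5 h replicate 1 were averaged) and 10 of the second. The authors deposited 1 linear intensity per probe set, and these intensities carry an array-wide scaling, since the mean of each array without its extreme values is nearly constant (149.955 to 149.964 on the main type). Which algorithm made them is not stated in the labels or headers. Values were used as log2(intensity + pseudocount), the pseudocount being the 10th percentile (7.63 main, 3.56 second), which understates changes of dim probe sets. Control probe sets were removed, and a test was made where the mean log2 level reached the 40th percentile, on 9520 probe sets of the main type and 5244 of the second; members below it were listed and not tested.

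Symbols followed the platform annotation, updated by gene identifier with the RefSeq table of GRCr8. A linear model per probe set with time as the only factor was fitted with limma 3.58.1 in R 4.3.3 (empirical Bayes with a mean-variance trend), with Benjamini-Hochberg adjustment over all tested probe sets at 0.05. A window is the unweighted mean of its times, and differences are log2. The fit was tested on simulated data.

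The members, the gene lists and the tests were chosen with earlier results of these data known. Named genes were all members past the threshold, the 3 highest and 3 lowest differences of each window, the brightest and dimmest of each subunit, the stalk, Rps6, Rpl5, Rpl11, Rpsa, Rpl13a and the paralogs present, with at most 4 genes per list and comparison. The lists of lymphocyte, adipose and adrenal markers had 2, 0 and 1 measured genes, and of 3 red cell markers, 5 thick limb and distal tubule markers and 5 collecting duct markers 0, 1 and 0 were called at 2 to 4 h. Alternatives covered the pseudocount, filter, scaling, array weights, replicate block, libraries in the fit, leaving out arrays of letters b and c, and each library left out.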

Additional observations from a re-analysis of the deposited data

Results flagged for a closer look

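At 0 h, the 1 group of 4 libraries, each measured member was checked for a library far from the other 3 relative to the group's range (Dixon's ratio), as was the median member level. Of 45 such checks 3 stood out; chance flags about 1 in 20. Rplp0 had a signal of 1612 in replicate 4, with the others at 1422 to 1429. Rpl13a had 1352 in replicate 1, with the others at 936 to 989. Rpl7l1 (1389013_at) had 302 in replicate 2, with the others at 270 to 276. Each lies in a different library, and none of these probe sets was called against 0 h.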

How the results depend on the processing

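The median difference of the members kept its direction in all 62 alternatives in the windows of 0.25 to 1, 2 to 4, 5 to 8 and 30 to 72 h, and turned in 4 at 12 to 18 h (lowest −0.03) and in 2 at 5 to 8 h against 30 to 72 h (highest 0.02). Array weights, whose estimation warned that it stopped before convergence, gave 9 members in the F test, 3 at 2 to 4 h, 1 at 5 to 8 h and 4 at 5 to 8 h against 30 to 72 h, where leaving out the 6 libraries of high Fga also gave 4. The share of all probe sets called was not determined for any alternative fit, so these counts cannot be set against the array as a whole. The sample titles give each array a letter, a, b or c, and do not say what it stands for. At 2 to 4 h, 0 were called with no filter, with the compared libraries alone and with arrays of letter a alone. With array b alone for 5 h replicate 1 the F test called 1. That choice and the one on Fga were made after seeing the data. On the second type, dropping repeat arrays left 1 library at 2 h, replicate 2, assumed to vary like the other groups. In that fit 23 members were called. The library had the highest SD of deviations over all tested probe sets, 0.80 against 0.38 to 0.53 in the others. A count that rests on this library alone is therefore not a result for the ribosomal proteins in particular. Leaving out 1 library at a time gave 0 to 1 members in the F test, 0 to 2 at 2 to 4 h, 0 to 1 at 5 to 8 h, 2 to 4 at 5 to 8 h against 30 to 72 h and 0 to 3 at 2 h on the second type; the cause was not tested. The call of Rps28 at 5 to 8 h appeared without 5 h replicate 3 (adjusted p = 0.0307, limma).

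Deviations of same-numbered libraries had a mean r of 0.06, with 153 of 408 pairs over 0.1, against −0.03 and 137 of 864 for different numbers. Same-numbered libraries were thus somewhat more alike, and the reason was not tested. The labels name no shared source, and the main fits did not use the numbers. A replicate block gave 3 members at 5 to 8 h against 30 to 72 h and 1 at 2 h on the second type, and moved no other count of calls. It lowered the median differences at 0.25 to 1, 2 to 4 and 5 to 8 h to 0.02, 0.04 and 0.04, the values without 0 h replicate 4, since the number 4 occurs at 0 h alone.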
